A study of Homo sapiens with 6 samples.

Results

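The peroxiredoxins are a family of peroxidases encoded in human cells by 6 genes, PRDX1 to PRDX6. The family was chosen by the log2 difference of PRDX1 between the carfilzomib-resistant and parental cells described here, which is very large, and its members were then taken by name from probe sets whose only annotated gene is a member. The rule found 10 of the 54613 probe sets, 1 for PRDX1, 4 for PRDX2, 2 for PRDX3, 1 for PRDX4 and 2 for PRDX6, which is 5 of the 19775 genes with a single-gene probe set. No probe set was annotated to PRDX5, which was not analysed here. LP-1/Cfz is a derivative of the LP-1 human multiple myeloma line selected for resistance to 12 nM carfilzomib, a proteasome inhibitor, and it was grown for 1 week without the drug before RNA was taken. Parental LP-1 cells, never selected in the drug, were profiled beside it. There were 3 LP-1/Cfz samples and 3 of LP-1, each on its own Affymetrix U133 Plus 2.0 array, and both groups grew in medium with 4% serum according to the labels. LP-1/Cfz is 1 resistant derivative of 1 line, so that drug resistance and any other difference between these cultures cannot be told apart.

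Peroxiredoxins reduce hydrogen peroxide and organic peroxides with a reactive cysteine that is oxidized in the reaction. In the typical 2-Cys members, PRDX1 to PRDX4, the oxidized cysteine forms a disulfide with a partner subunit, which thioredoxin then reduces with electrons passed from NADPH by thioredoxin reductase. PRDX1 and PRDX2 work in the cytosol, PRDX3 in mitochondria and PRDX4 in the endoplasmic reticulum, where it can hand oxidizing equivalents to protein disulfide isomerases. PRDX6 has a single catalytic cysteine, relies on glutathione and also acts as a phospholipase. Plasma cells and myeloma cells fold large amounts of secreted protein, a process that yields hydrogen peroxide in the endoplasmic reticulum, and PRDX1 is a known target of the antioxidant transcription factor Nrf2.

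The deposited log2 values are centred for each probe set on an unstated baseline. Differences between arrays can be read from them, while the level of a gene, and the level of one gene against another, cannot. For the same reason the plasma cell identity of the line could not be checked from levels. Differences in plasma cell markers could be read, and 5 of 8 were called between LP-1/Cfz and LP-1. The surface proteins SLAMF7 and CD38 fell by 2.17 and 1.07, while SDC1, TNFRSF17 and MZB1 rose by 0.38, 0.27 and 0.39. The values of LP-1/Cfz replicate 3 were spread more widely than those of any other array (interquartile range 0.338 over all probe sets, against 0.23 to 0.264 on the other 5). Of markers of other cell types, 0 of 6 measured myeloid genes were called, 1 of 7 T and NK cell genes was higher (CD8A, 0.34) and 1 lower (GNLY, -0.30), 2 of 8 stromal genes were lower (VIM, -0.47, and ACTA2, -0.32) and 1 of 5 erythroid genes was lower (HBB, -0.87). Over all genes 16.7% were called in either direction. The part of these markers in the peroxiredoxin values was not tested. The sources do not say whether the 3 samples of a group came from separate cultures, and p-values therefore measure no more than sample-to-sample spread, possibly a technical one.

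PRDX1 was far lower in LP-1/Cfz than in LP-1 on its single probe set, 208680_at. Its log2 values were -6.69, -7.13 and -6.93 on the LP-1/Cfz arrays, against -0.82, -0.91 and -0.87 on the LP-1 arrays. All 3 LP-1/Cfz arrays lay far under all 3 LP-1 arrays, with a gap of 5.77 on the log2 scale between the nearest arrays of the groups. The group means were -6.92 ± 0.222 in LP-1/Cfz and -0.87 ± 0.0459 in LP-1 (SD, n = 3 each), a log2 difference of -6.05 with a standard error of 0.109. On the linear scale this is a 66.2-fold lower value, or 1.51% of that in LP-1. Whether the LP-1/Cfz signal stood above background could not be judged without levels, so that these figures may not measure the transcript left. Taken one by one, the LP-1/Cfz arrays were 56.5-fold, 76.8-fold and 66.9-fold below the LP-1 mean, so that the spread among them was small beside the difference. Of 19775 genes, PRDX1 had the 2nd lowest difference. Because the gene was picked for this fall, these values are a description and carry no test. In RNA from a whole culture, fewer cells with a transcript and less transcript in each cell cannot be told apart.

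None of the 4 measured paralogues changed on anything like that scale. Apart from PRDX1, 1 of 9 peroxiredoxin probe sets was called higher and 0 lower by limma at an adjusted p under 0.05, where 4.25% of all probe sets were called higher and 6.76% lower, 11.0% together. Of these 9 probe sets, 4, all of PRDX2 or PRDX6, had an unadjusted p under 0.05 without passing the adjustment. The same held for 7234 of all 54613 probe sets. At the level of genes, with the mean taken over the probe sets of a gene, 1 of 4 paralogues was called higher and 0 lower, beside 6.72% and 10.0% of all genes, 16.7% together. The groups did not overlap on 8 of the 9 probe sets, 6 with LP-1/Cfz above LP-1 and 2 with LP-1/Cfz below, beside 30.7% of all probe sets, 14.2% above and 16.5% below. For genes this held for all 4, 3 above and 1 below, beside 35.9% of all genes, 16.6% above and 19.3% below. The paralogues were taken by name and not for their values, but probe sets to 1 gene are no independent evidence of its direction.

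**Figure D1:**
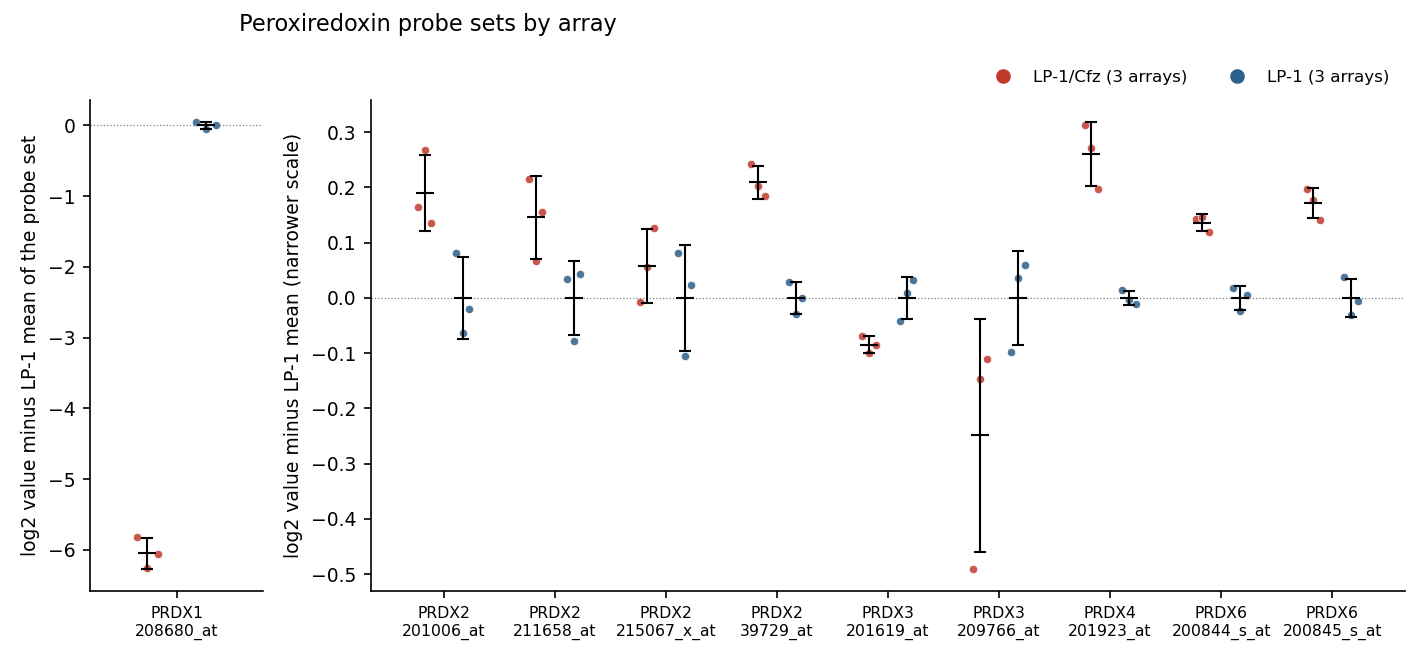
Each point is 1 array, LP-1/Cfz in red and LP-1 in blue, with bars for mean and SD (n = 3). Vertically, log2 values are plotted after subtracting each probe set's mean in LP-1, on a much wider scale for PRDX1 on the left, where LP-1/Cfz lies near -6, than for the other 9 probe sets on the right, whose largest average difference is 0.26.

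PRDX4, the peroxiredoxin of the endoplasmic reticulum, was the paralogue called higher. Its single probe set, 201923_at, had -0.31, -0.35 and -0.42 on the LP-1/Cfz arrays, against -0.61, -0.63 and -0.63 on the LP-1 arrays. Every LP-1/Cfz array lay above every LP-1 array, with LP-1/Cfz replicate 3 the closest to LP-1. The log2 difference was 0.26 (standard error 0.0606, 95% interval 0.12 to 0.40, adjusted p = 0.0313 from limma over all probe sets), a value 19.8% higher in LP-1/Cfz. In the fit over genes the adjusted p was 0.0107. Of all genes, 13.5% had a larger difference in either direction. Over probe sets, 5 of 6 fits with an array omitted did not call it, all but the one without LP-1/Cfz replicate 3 (adjusted p 0.0792 to 0.116). Over genes it was lost without LP-1 replicate 3 alone (adjusted p = 0.051), and with arrays quantile normalized again the difference was 0.36. PRDX2 and PRDX6 also had positive differences, given below, and no test compared the paralogues with each other.

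PRDX2, the cytosolic paralogue closest in kind to PRDX1, had positive differences on all 4 of its probe sets but passed on none of them. Probe set 39729_at had 0.27, 0.23 and 0.21 in LP-1/Cfz, against 0.05, -0.006 and 0.02 in LP-1. Probe set 201006_at had 0.30, 0.40 and 0.27 in LP-1/Cfz, against 0.22, 0.07 and 0.12 in LP-1. Both of these separated the groups, as did 211658_at, which was built on the same transcript record as 39729_at. The fourth, 215067_x_at, whose suffix marks probes that may bind other transcripts too, had groups that overlapped. The log2 differences were 0.21 (adjusted p = 0.0586 from limma), 0.19 (adjusted p = 0.138), 0.15 (adjusted p = 0.249) and, for 215067_x_at, 0.058 (adjusted p = 0.687). As a gene PRDX2 had 0.15 (standard error 0.0513, 95% interval 0.03 to 0.27, adjusted p = 0.0887).

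PRDX6, the 1-Cys member with phospholipase activity, gave nearly the same difference on both of its probe sets. Probe set 200845_s_at had 0.43, 0.41 and 0.38 in LP-1/Cfz, against 0.27, 0.21 and 0.23 in LP-1. Probe set 200844_s_at had 0.29, 0.29 and 0.27 in LP-1/Cfz, against 0.17, 0.12 and 0.15 in LP-1. On both, all LP-1/Cfz arrays were above all LP-1 arrays by at least 0.10. The differences of 0.17 (adjusted p = 0.113 from limma) and 0.14 (adjusted p = 0.188) did not pass over probe sets, nor did the gene at 0.15 (standard error 0.0463, 95% interval 0.05 to 0.26, adjusted p = 0.06). With arrays weighted by their quality, PRDX6 passed at an adjusted p of 0.0302. Its antisense neighbour PRDX6-AS1, a long noncoding RNA read by its own probe set, had -0.16 (adjusted p = 0.233 over genes).

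PRDX3, the mitochondrial member, was the paralogue with values below those of LP-1. Probe set 201619_at had 0.17, 0.14 and 0.15 in LP-1/Cfz, against 0.20, 0.25 and 0.27 in LP-1. Probe set 209766_at had -0.35, -0.008 and 0.03 in LP-1/Cfz, against 0.04, 0.17 and 0.20 in LP-1. The groups were separate on both, but by only 0.03 and 0.01, and on the second LP-1/Cfz replicate 1 lay well under the other arrays. The differences were -0.08 (adjusted p = 0.431 from limma) and -0.25 (adjusted p = 0.21), and without that array the second was -0.13. As a gene PRDX3 had -0.17 (standard error 0.0654, 95% interval -0.32 to -0.015, adjusted p = 0.133), which passed only with array weights (-0.21, adjusted p = 0.0485) among the alternatives tried.

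**Figure D2:**
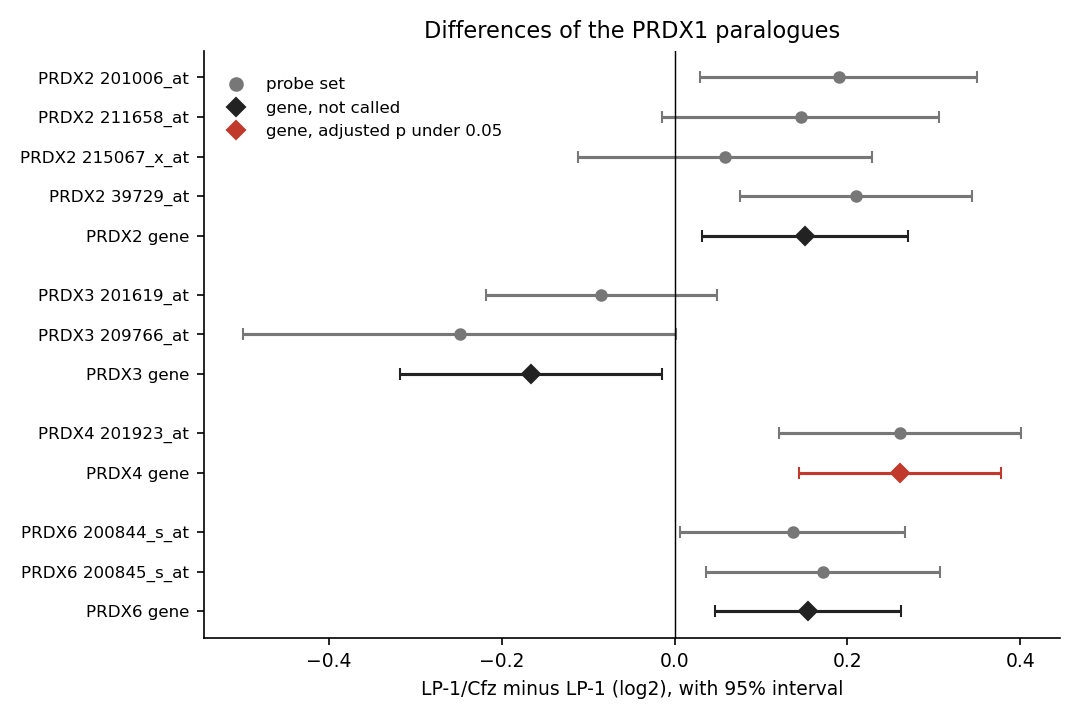
Differences between LP-1/Cfz and LP-1 on the log2 scale for each probe set (circles) and gene (diamonds) of PRDX2, PRDX3, PRDX4 and PRDX6, with 95% intervals from limma before adjustment for many tests. PRDX4, in red, is the gene with an adjusted p under 0.05, at 0.26; PRDX2 and PRDX6 lie near 0.15 and PRDX3 at -0.17.

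At the level of genes, the 95% intervals of the paralogues, which are not adjusted for many tests and cover the spread between these arrays only, ran no further than 0.38 upward and -0.32 downward on the log2 scale, while PRDX1 differed by -6.05. Over single probe sets they ran to 0.40 upward and to -0.50 downward, at 201923_at of PRDX4 and 209766_at of PRDX3. Since the baseline of each probe set is unknown, the values do not show what share of all peroxiredoxin transcripts PRDX1 made up in LP-1, nor how much of it the paralogues could replace.

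The promoter of PRDX4 is shown because PRDX4 was the paralogue called higher and because the study asks about Nrf2, which binds antioxidant response elements. It runs from 250 bases before the annotated start to the start base, in capitals, on the plus strand of chrX:23667243-23667493 (RefSeq, GRCh38.p14).
PRDX4: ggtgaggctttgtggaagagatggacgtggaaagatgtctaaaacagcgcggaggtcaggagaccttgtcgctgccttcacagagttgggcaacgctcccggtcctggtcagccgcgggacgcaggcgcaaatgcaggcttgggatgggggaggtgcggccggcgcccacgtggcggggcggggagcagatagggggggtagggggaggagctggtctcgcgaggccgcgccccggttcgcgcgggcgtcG
The core of the antioxidant response element, TGACNNNGC, was searched on both strands of 300-base windows, which run on to 50 bases after the start. The AP1-like motif was searched in the same way as TGACTCA, whose reverse complement is read on the other strand. The form TGATTCA was counted as AP1-like too. Neither motif was found in the windows of PRDX2, PRDX3 or PRDX4, where 13.3% and 7.71% of 35116 such windows of all genes hold them. Windows of PRDX1 and PRDX6 were not used here. That these letters are not in a window says nothing of binding elsewhere.

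The genes beside each peroxiredoxin on its chromosome were read next, 5 measured genes on each side. PRDX1 lies on chromosome 1 between MMACHC, which processes vitamin B12 inside the cell, at 0.04 (adjusted p = 0.608 from limma over genes), and NASP, a histone chaperone, which fell by 0.26 (adjusted p = 0.0062). Farther neighbours also fell, the DNA glycosylase MUTYH by 0.41 (adjusted p = 0.00211) and the nuclease TOE1 by 0.28 (adjusted p = 0.0307). The 10 neighbours ranged from -0.41 to 0.24 with a median of 0.00052, so that none came near the fall of PRDX1. TOE1 was not called in 5 of 6 fits with an array omitted (adjusted p up to 0.0988).

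PRDX4 lies on chromosome X, on which 23.4% of 696 genes were called higher in LP-1/Cfz and 5.89% lower, with a median difference of 0.08. Among its own 10 neighbours 0 were called higher, with 0.22 for the membrane protein PTCHD1 and 0.08 for the thioesterase ACOT9 on its sides (adjusted p = 0.147 and 0.346 from limma), and 1 fell, the polyamine acetyltransferase SAT1, by 0.46 (adjusted p = 0.00193). PRDX3 lies on chromosome 10, where the split ran the other way, with 3.09% of 777 genes higher and 25.1% lower and a median of -0.05. Its nearest neighbours SFXN4 and GRK5 had -0.09 and -0.03, and 2 of 10 fell, CACUL1 by 0.23 (adjusted p = 0.0192) and the phosphatase INPP5F by 0.25 (adjusted p = 0.0184), both of which missed the threshold in 3 of 6 fits with an array omitted (adjusted p up to 0.0843). With its highest-mean probe set in place of the mean of its probe sets, INPP5F had -0.11 (adjusted p = 0.451). With the median of its probe sets it was not called (adjusted p = 0.0513). As values are centred, the highest mean need not mark the brightest probe set. The direction of PRDX4 and that of PRDX3 were thus the same as those of most called genes of their chromosomes. The part of these chromosomes in the values of PRDX4 and PRDX3 was not tested.

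PRDX2, with its positive difference, lies on chromosome 19, where 3.56% of 1320 genes were higher and 12.0% lower, so that its sign was opposite to that of most called genes there. Its neighbours were called in both directions. JUNB, a member of the AP1 transcription factors that lies next to it, fell by 0.30 (adjusted p = 0.0186 from limma), HOOK2, a microtubule-linked adaptor, rose by 0.43 (adjusted p = 0.00108), and RNASEH2A, a ribonuclease subunit on the other side, had -0.05. JUNB was not called in 2 of 6 such fits (adjusted p up to 0.077). Around PRDX6, on chromosome 1, 0 of 10 neighbours were called in either direction, with values from -0.16 to 0.28, the highest being that of SLC9C2, which lies beside it. Of 1926 genes on chromosome 1, which also holds PRDX1, 7.68% were called higher and 6.96% lower, with a median difference of 0.04.

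**Figure D3:**
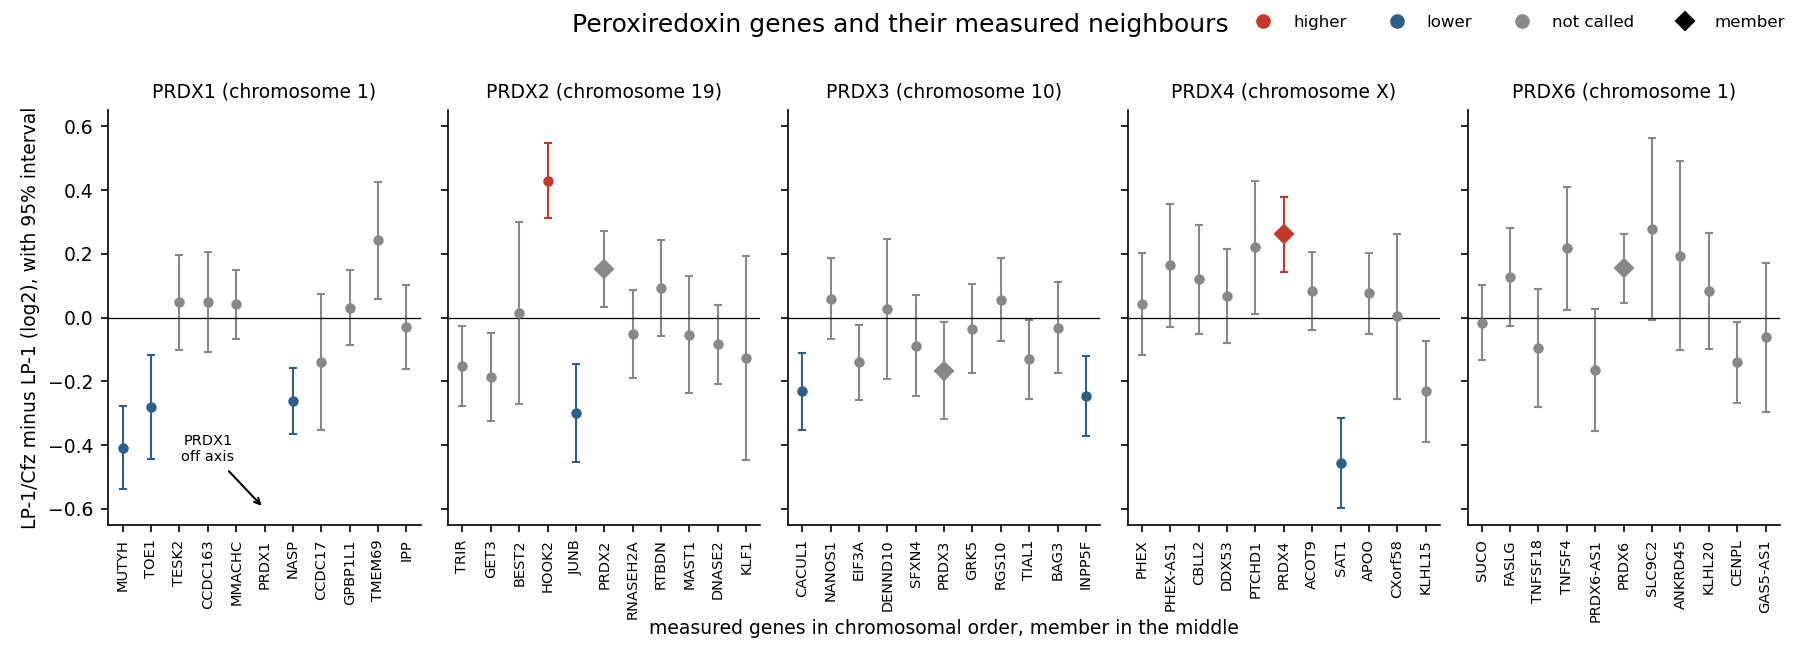
Differences between LP-1/Cfz and LP-1 (log2, 95% intervals) for each measured peroxiredoxin gene (diamond) and the 5 measured genes on each side in chromosomal order, 1 panel per member. Red and blue mark genes called higher and lower in LP-1/Cfz; PRDX1 lies off the axis at -6.05 while its 10 neighbours range from -0.41 to 0.24.

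Thioredoxin and its reductase, which recharge the 2-Cys peroxiredoxins, did not pass. TXN had -0.58, -0.56 and -0.58 in LP-1/Cfz, against -0.62, -0.63 and -0.62 in LP-1, on probe set 208864_s_at (difference 0.05, adjusted p = 0.637 from limma over probe sets), and 0.017 as a gene. TXNRD1, the cytosolic reductase, had -0.22, -0.20 and -0.27 in LP-1/Cfz, against -0.02, -0.05 and -0.02 in LP-1, on 201266_at (difference -0.20, adjusted p = 0.0701), while its other probe set had 0.20 with overlapping groups, so that the mean of both was 0.0016. SRXN1, the sulfiredoxin that restores overoxidized peroxiredoxins, had 0.21, 0.11 and 0.14 in LP-1/Cfz, against 0.07, 0.07 and 0.07 in LP-1 (difference 0.08, adjusted p = 0.302 over genes).

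Of 25 measured genes of the thioredoxin system, 4 rose and 4 fell in LP-1/Cfz, where 6.72% of all genes were called higher and 10.0% lower, and the median of 0.02 was that of all genes. The largest rises were in SESN2 and SESN1, 2 of the sestrins, stress-induced proteins linked to peroxiredoxin repair and to mTORC1, while the other member, SESN3, had 0.03 over 7 probe sets with overlapping groups (adjusted p = 0.742 from limma over genes). SESN1 had 0.92, 1.08 and 0.88 in LP-1/Cfz, against -0.015, 0.0078 and 0.07 in LP-1, a rise of 0.94 (adjusted p = 6.89e-05 from limma over genes), and SESN2 rose by 0.96 on the mean of its 2 probe sets. NXN, nucleoredoxin, had 1.60, 1.60 and 1.65 in LP-1/Cfz, against 1.11, 0.92 and 0.91 in LP-1 (0.64, adjusted p = 0.000533). MSRB3, a methionine sulfoxide reductase, rose by 0.38 (adjusted p = 0.00158), on all 5 of its probe sets. Omitting any 1 array lost none of these 4 calls.

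The members of this list that fell were RRM2 and RRM1, subunits of ribonucleotide reductase, by 0.37 (adjusted p = 0.00251 from limma) and 0.17 (adjusted p = 0.0396), TXNDC9, a protein with a thioredoxin fold, by 0.30 (adjusted p = 0.0131), and GLRX, the cytosolic glutaredoxin, by 0.19 (adjusted p = 0.0219). RRM2 and TXNDC9 were still called whichever array was omitted, whereas RRM1 was called in 0 of the 6 such fits (adjusted p 0.0595 to 0.146) and GLRX missed in 5 (up to 0.089). RRM1 and GLRX were called on none of their own probe sets (adjusted p 0.0565 to 0.132 from limma over probe sets). TXNDC9 fell on 203008_x_at and 211758_x_at, whose suffix marks probes that may bind other transcripts, by 0.44 and 0.42, whereas its other probe set had -0.03. With that one alone, which has the highest mean of the centred values, TXNDC9 was not called (adjusted p = 0.848). That mean does not show which probe set is the brightest.

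A further list held the other enzymes that remove hydrogen peroxide and superoxide together with genes that serve them, such as GSR, which regenerates glutathione, and the dehydrogenase GLUD1. Of its 16 measured genes 0 rose and 3 fell, where 6.72% of all genes were called higher and 10.0% lower, with a median of -0.05. Only GPX4 of the 3 itself removes a peroxide. Catalase, CAT, had -0.07 (adjusted p = 0.377 from limma), the superoxide dismutase SOD1 -0.10 (adjusted p = 0.196) and the glutathione peroxidase GPX1 0.07 (adjusted p = 0.539). On the arrays GPX1 stood at 6.60, 6.54 and 6.53 in LP-1/Cfz, against 6.61, 6.36 and 6.48 in LP-1, far above its baseline in both. The 3 that fell were GLUD1, glutamate dehydrogenase, by 0.28 (adjusted p = 0.00552), the lipid peroxidase GPX4 and glutathione reductase, GSR. GLUD1 kept its call without any 1 array, GPX4 lost it in 2 of the 6 fits (adjusted p up to 0.0663) and GSR in all 6 (up to 0.135). GSR was called on neither of its own probe sets (adjusted p = 0.0656 and 0.187 from limma over probe sets).

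In the endoplasmic reticulum, where PRDX4 acts, 2 of 18 measured genes of oxidative folding rose and 3 fell, where 6.72% of all genes were called higher and 10.0% lower, with a median of 0.01. VKORC1, the vitamin K epoxide reductase, had 0.53, 0.50 and 0.46 in LP-1/Cfz, against 0.05, -0.02 and 0.05 in LP-1, a rise of 0.48 (adjusted p = 0.000562 from limma), and the sulfhydryl oxidase QSOX2 rose by 0.28 (adjusted p = 0.0146). ERO1A, the main oxidase of disulfide isomerases, had 0.20 as a gene (adjusted p = 0.0503) and passed on 1 of its 3 probe sets, at 0.36 (adjusted p = 0.0109 over probe sets). In the other direction, TMX1 had -0.15 as a gene (adjusted p = 0.0628). It passed on 1 of its 2 probe sets, at -0.25 (adjusted p = 0.0331 over probe sets). P4HB, the abundant disulfide isomerase, had 0.09 (adjusted p = 0.305). The thioredoxin-fold proteins TMX3, TXNDC11 and ERP29 fell by 0.34 (adjusted p = 0.0295), 0.32 (adjusted p = 0.0107) and 0.26 (adjusted p = 0.00964). With 1 array left out, the call of QSOX2 was lost in 3 of 6 fits and that of TMX3 in 4 (adjusted p up to 0.0924). With its probe set of highest centred mean, TMX3 had -0.52 and was not called (adjusted p = 0.0532). In the fit over probe sets, TMX3 was called on neither of its own (adjusted p = 0.0547 and 0.118 from limma).

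**Figure D4:**
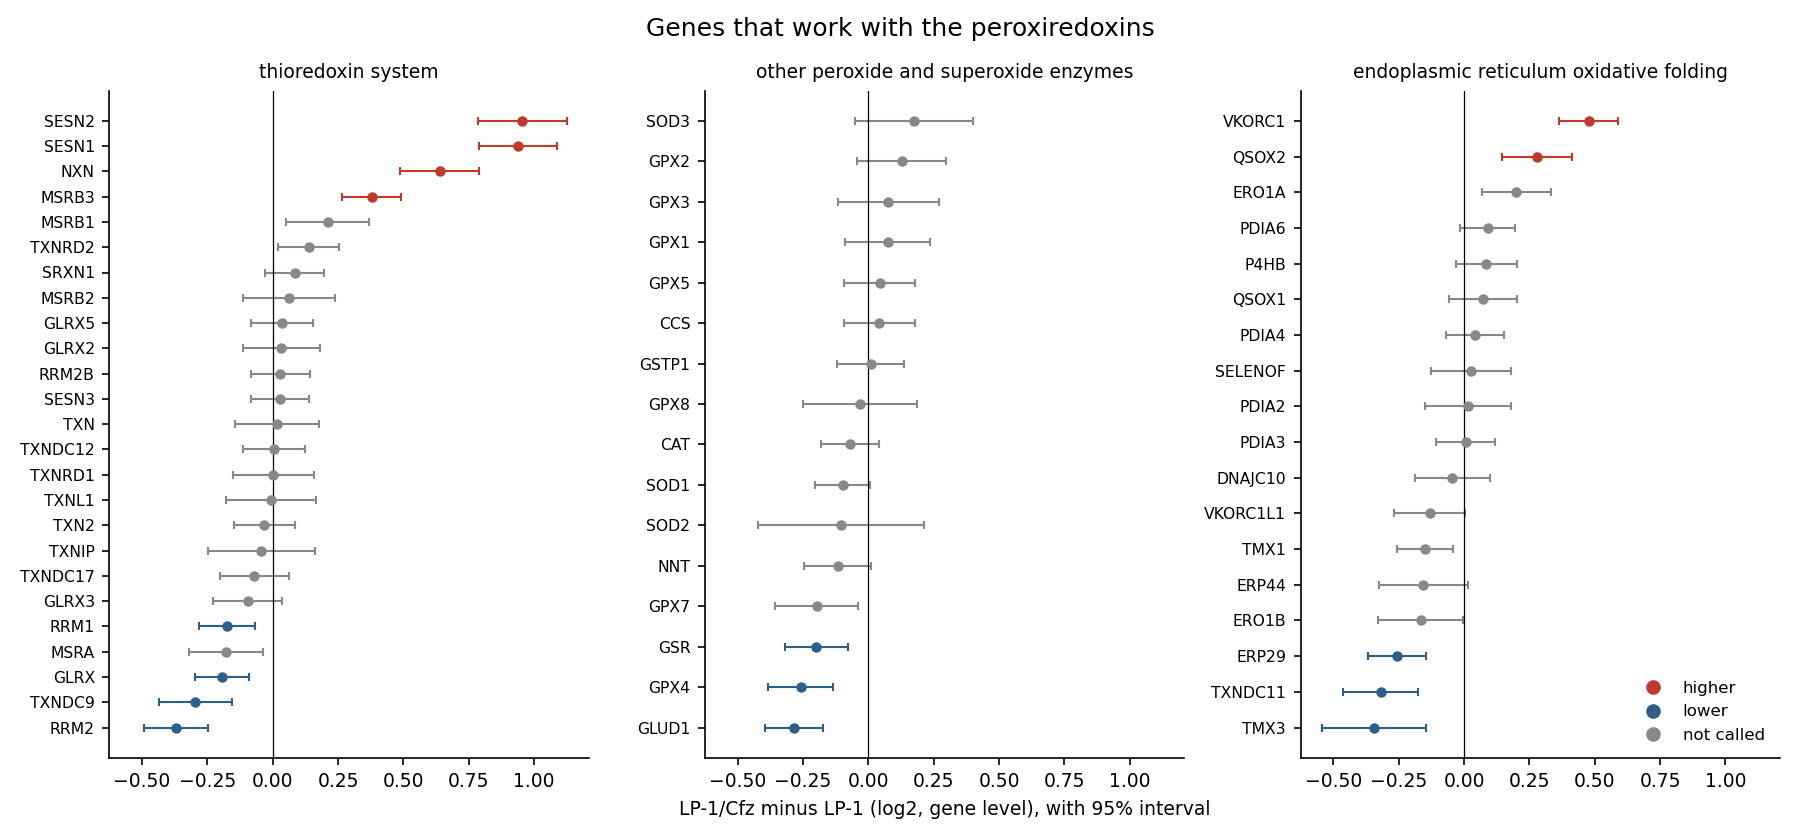
Gene-level differences between LP-1/Cfz and LP-1 (log2, 95% intervals) for 3 lists of genes that work with or beside the peroxiredoxins, sorted by value, with red and blue for genes called higher and lower. SESN2 and SESN1 lie highest, near 0.95, and TXN, TXNRD1, CAT and SOD1 lie within 0.1 of no difference. The value of TXNRD1 is the mean of probe sets at -0.20 and 0.20.

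Among 18 measured genes of enzymes and subunits that produce hydrogen peroxide, 1 rose and 2 fell, where 16.7% of all genes were called in either direction. AIFM1, a mitochondrial flavoprotein, rose by 0.31 (adjusted p = 0.00797 from limma), while RAC2, the small GTPase of the phagocyte oxidase, fell by 0.40 (adjusted p = 0.00216) and NCF1, another subunit of that oxidase, by 0.26 (adjusted p = 0.0361). Of 13 measured partners and clients of peroxiredoxins, 0 rose and 1 fell, MAP3K5, the stress kinase ASK1 whose activation peroxiredoxins can modulate, by 0.25 (adjusted p = 0.0357). With an array omitted, NCF1 missed the threshold in 4 of 6 fits and MAP3K5 in 3 (adjusted p up to 0.119). The single probe set of NCF1, 214084_x_at, has the suffix of probes that may bind other transcripts too. In the fit over probe sets NCF1 was not called (adjusted p = 0.0681 from limma). With arrays quantile normalized again, MAP3K5 had -0.12 and was not called (adjusted p = 0.171). MAP3K5 was also called on neither of its own probe sets (adjusted p = 0.09 and 0.144 from limma over probe sets).

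The 5 single-gene probe sets whose pattern was most like that of PRDX1 were then read. Likeness was measured as the distance over the 6 arrays, each probe set taken relative to its LP-1 mean, and a smaller distance means a closer match. The nearest was TMSB4X, which sequesters actin monomers, at a distance of 0.907, with -7.56, -7.78 and -8.64 in LP-1/Cfz, against -1.65, -1.68 and -1.75 in LP-1. TMSB4X thus fell about as far as PRDX1, to 78.9-fold below LP-1, but spread more among the LP-1/Cfz arrays. Next came EVI2A, a membrane protein (distance 2.01), the class II histocompatibility genes HLA-DQB1 and HLA-DQA1 (2.37 and 2.41) and CD44, a hyaluronan receptor (2.86), with falls of 33.5-fold, 25.9-fold, 25.3-fold and 21.5-fold. Histocompatibility genes have near-identical relatives, so that what their probes read is uncertain. As PRDX1 was chosen for this pattern, the likeness is a description without a test.

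**Figure D5:**
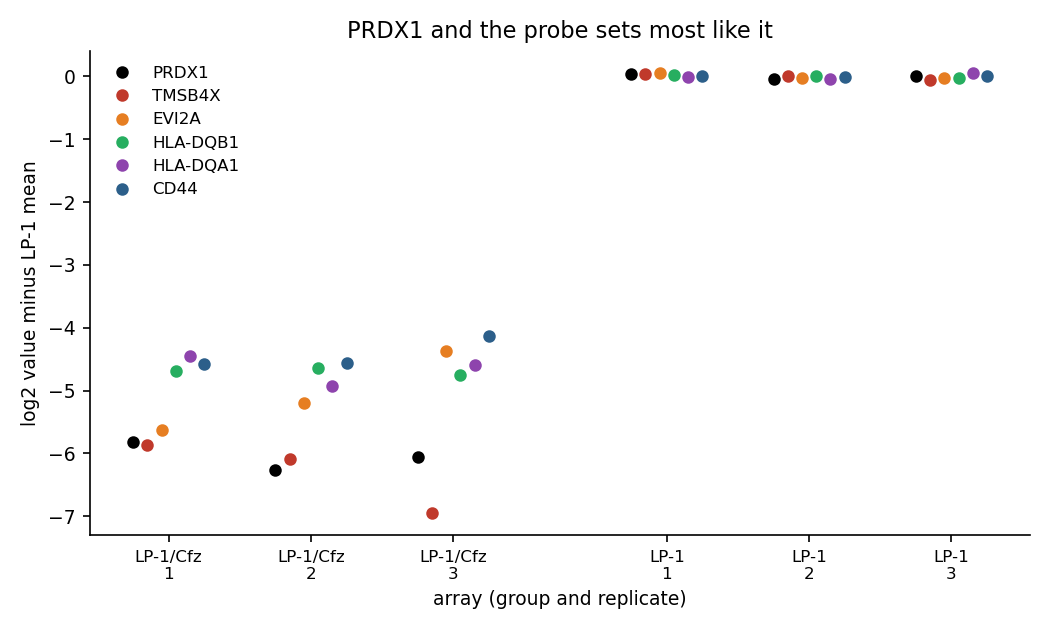
Log2 values relative to the mean of LP-1 for PRDX1 and the 5 single-gene probe sets nearest to it, each point 1 array, with the 3 LP-1/Cfz arrays on the left and the 3 LP-1 arrays on the right. PRDX1 and TMSB4X lie near -6 to -7 in LP-1/Cfz, and the other 4 near -4 to -6.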

How the data were processed

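The authors deposited log2 values of 54613 probe sets, made by RMA according to the submitters' processing notes (version not given in the sources used here). Control probe sets are not in the table used. Values are centred on an unstated baseline. In 13.9% of probe sets, 2 of the 6 values were equal and opposite within 1e-06, as centring on the median of an even number of arrays gives, while the median over these 6 arrays was 0 in 7.62%. Of the probe sets, 41091 name 1 gene, 1801 several and 11721 none in the array's annotation. No sample was left out and 0 columns were not used.

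Differences, LP-1/Cfz minus LP-1, were fitted with lmFit and eBayes of limma (version 3.58.1, R 4.3.3) with no covariates. The probe sets were fitted first and then the 19775 genes, each the mean of its single-gene probe sets, and p-values were adjusted by Benjamini-Hochberg over the whole of each. A call is a 2-sided adjusted p under 0.05. The fits were tested on simulated data. The number of arrays limits the precision. Members, lists and alternatives were chosen with earlier results of these data known. Named are all members, up to 4 called genes per list and direction with the largest change, TXN, TXNRD1, SRXN1, CAT, GPX1, SOD1, P4HB and ERO1A, the nearest and the called neighbours, and the 5 probe sets most like PRDX1. SESN3, TMX1 and the markers were named after their values were seen. Neighbours follow the order of RefSeq genes on GRCh38.p14.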

Additional observations from a re-analysis of the deposited data

How the results depend on the processing

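PRDX1 differed by -5.76 with arrays quantile normalized again and by -6.16 to -5.94 with 1 array left out, and its fold from means of linear values was 65.7. PRDX2 as a gene was not called under any alternative tried. Array weights called PRDX3 (-0.21) and PRDX6 (0.16) too, which made 2 paralogue genes higher and 1 lower, and with them 2 paralogue probe sets were higher, 39729_at of PRDX2 (adjusted p = 0.0366 from limma) beside that of PRDX4. PRDX4 ranged from 0.23 to 0.29 with 1 array left out. Against a minimum fold of 1.2 by limma's treat its difference of 0.26 was not called, which left 0 paralogue probe sets and 0 genes. Of the called partner genes in the lists, treat kept SESN1, SESN2, NXN and VKORC1 and lost all others. It also lost every called neighbour of the paralogues and of PRDX1. With 1 array left out, 0 to 1 paralogue probe sets and 0 to 1 genes were called higher.

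Same-numbered arrays of the groups did not deviate together (correlations -0.049, 0.126 and -0.006), so that the numbers were not taken to pair samples. With the replicate block, 0 paralogue probe sets were called higher (PRDX4 adjusted p = 0.0752), while PRDX4 as a gene was still called. The genes GLRX, GSR, RRM1 and CACUL1 lost their calls with that block.

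Over all probe sets, 1291 to 2356 were higher and 2062 to 3081 lower with 1 array left out, and 443 and 869 by treat, against 2323 and 3691. Over genes these were 823 to 1439, 1230 to 1755, 215 and 409, against 1328 and 1984. With the highest-mean probe set of each gene in place of the mean, GLRX, GSR, MAP3K5, QSOX2, RRM1, TMX3, TXNDC9, CACUL1 and INPP5F were not called. That mean is of centred values and need not mark the brightest probe set. NCF1 and TOE1 have 1 probe set each, so that their differences stayed at -0.26 and -0.28. They too were not called (adjusted p = 0.0605 and 0.0515 from limma), though only the values of other genes in the fit had changed. The causes of the other losses were not tested. Uncalled values changed sign for TXN (-0.017 taking its highest-mean probe set, -0.032 to 0.069 with 1 array left out), TXNRD1 (-0.0077 with median-centred arrays, -0.011 with array weights, -0.030 to 0.058 with 1 array left out) and GRK5 (-0.0745 to 0.011 with 1 array left out). Without levels, signal over background could not be judged.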
